A study of Mus musculus with 8 samples.

Results

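The genes described here are 33 named members of cholesterol synthesis and sterol transport: 18 synthesis enzymes, 6 regulators of the pathway, and 9 genes that carry, store or remove sterols. They were taken by gene symbol from the array annotation, and each was read from its brightest probe among those well above background on at least 4 of 8 arrays. All 33 had such a probe, and each of these probes was well above background on all 8 arrays, out of 20894 rows tested from 34821 gene names on the array. Total RNA came from the hippocampus of female C57BL6/J mice aged 8 weeks, all of them kept for 4 weeks in an enriched environment. A group of 4 arrays came from mice given control antibody and a group of 4 from mice given an anti-CD4 antibody, which binds a protein on the surface of helper T cells, and the comparison asks what that antibody treatment goes with in hippocampal gene expression. Every array therefore came from an enriched housing animal or pool, and no standard housing group enters any comparison. The labels do not say whether an array holds 1 animal or a pool, nor that the samples were separate animals. The p-values thus reflect the spread among these 8 samples alone, part of which may be technical. The sources used here give no antibody clone, dose or measure of T cell loss.

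Cells make cholesterol from acetyl-CoA through mevalonate, isoprenoid diphosphates, squalene and lanosterol. When membrane sterol is scarce, the escort protein SCAP carries the SREBP transcription factors out of the endoplasmic reticulum and synthesis genes are switched on, while INSIG proteins hold the complex back when sterol is plentiful. The brain makes nearly all of its own cholesterol because lipoproteins do not cross the blood-brain barrier: astrocytes ship it to neurons on ApoE particles loaded by ABC transporters, neurons take these up through receptors such as LRP1, and neurons remove surplus by hydroxylating it with CYP46A1.

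Cyp46a1 and Apoe stand at the removal and carrying ends of this traffic, and the probes that measured them are shown. Both are among the 3 of 33 members (9.09%), with Lrp1, whose groups did not overlap, against 8.1% of all rows. The Apoe groups overlapped under quantile normalization. The Cyp46a1 probe, of 60 bases on the plus strand, lies at chr12:109596310-109598708 (mm9). This span of 2399 bases is longer than the probe, so the probe crosses an intron and reads spliced exons, starting at base 1199 of its transcript. The Apoe probe, also of 60 bases, lies at chr7:20281732-20281791 on the minus strand (mm9) and starts at base 1052 of its transcript.
Cyp46a1 probe: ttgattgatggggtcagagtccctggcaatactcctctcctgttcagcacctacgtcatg
Apoe probe: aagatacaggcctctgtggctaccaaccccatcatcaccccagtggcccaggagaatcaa

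Promoters are shown for Cyp46a1, the member with the smallest p, and for Hmgcs1, a synthesis gene under SREBP control and the only matched member whose window held the sterol regulatory element letters searched here. Both are the 250 bases before the start site in RefSeq on GRCm38.p6, plus strand, at chr12:108334066-108334315 for Cyp46a1 and chr13:119690101-119690350 for Hmgcs1. Capitals mark the GC box CCGCCC in Cyp46a1, and the sterol regulatory element TCACNCCAC and the CCAAT box in Hmgcs1, with other motifs left in lower case. The marked GC and CCAAT boxes lie on the opposite strand and so read GGGCGG and ATTGG. Both windows held CCAAT and GC boxes, so of the 3 motifs only the sterol regulatory element was in one and not in the other.
Cyp46a1 promoter: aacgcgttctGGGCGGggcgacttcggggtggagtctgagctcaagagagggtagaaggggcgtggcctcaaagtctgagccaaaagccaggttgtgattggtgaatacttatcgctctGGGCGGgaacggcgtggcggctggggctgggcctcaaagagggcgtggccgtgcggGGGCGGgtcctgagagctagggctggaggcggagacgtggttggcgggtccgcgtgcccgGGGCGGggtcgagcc
Hmgcs1 promoter: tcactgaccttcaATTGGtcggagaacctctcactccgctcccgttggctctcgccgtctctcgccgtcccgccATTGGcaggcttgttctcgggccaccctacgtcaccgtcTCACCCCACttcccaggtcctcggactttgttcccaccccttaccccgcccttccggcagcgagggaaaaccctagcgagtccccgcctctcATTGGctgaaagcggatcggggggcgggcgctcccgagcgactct

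Promoters were matched for 27 of the 33 members, Sc4mol under its current name Msmo1. Sqle, Fdps, Fdft1, Abcg1, Npc1 and Stard4 had no matched promoter and were not searched. Each motif was searched on both strands of the same 250 bases, and other forms of the sterol regulatory element were not searched. The sterol regulatory element letters stood in 1 of the 27, Hmgcs1, at 137 bases before the start, and in 1.05% of all 32851 RefSeq promoters. The Hmgcs1 window also held 3 CCAAT boxes, at 237, 176 and 45 bases before the start. The CCAAT letters were in 21 of 27 members (77.8%) and in 33.8% of all promoters. The GC box was in 23 of 27 (85.2%) and in 32.7% of all promoters, and Cyp46a1 carried 4, at 240, 131, 75 and 15 bases before the start. CCAAT can lie next to or inside longer motifs, no overlap was resolved, and a match is only a description of letters. The 32851 promoters were counted by entry and were not limited to genes that passed the filter, as all members did. The shares are therefore not a like comparison.

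The 8 arrays sat on 1 slide and were scanned together, with 51.1% to 54.3% of probes well above background and no saturated probe. All anti-CD4 arrays occupied slide row 1 and all control arrays slide row 2, so row and antibody cannot be told apart. Spots flagged as outliers by the Feature Extraction software numbered 98 to 124 on the control arrays and 127 to 179 on the anti-CD4 arrays. The part of this in the results was not tested. Correlations over all probes were 0.986 to 0.992 within groups and 0.987 to 0.991 between them. Of 12 T lymphocyte genes, 4 passed the filter, all 4 above 0 (median 0.13), and 0 reached an unadjusted limma p under 0.05. The median was 0.019 with only probes well above background on all 8 arrays, and 0.062 in the authors' deposited table. The list averaged −0.26 to 0.14 in controls and −0.070 to 0.28 after anti-CD4, so the groups overlapped. Cd4, whose product the antibody binds, differed by 0.019 (SE 0.095).

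Each value is the log2 signal less the 75th percentile of its array, and each difference is the anti-CD4 mean less the control mean on that scale. By limma with Benjamini-Hochberg adjustment, 0 of 33 members and 0 of 20894 rows (0% of all rows) passed an adjusted p of 0.05, the smallest in the whole table being 0.0871. At an unadjusted p under 0.05, 3 of 33 members differed (9.09%), against 12.8% of all rows, and all 3, Cyp46a1, Lrp1 and Sqle, were higher after anti-CD4, where 6.61% of all rows were higher and 6.18% lower. The groups did not overlap for 3 members (9.09%), Cyp46a1, Lrp1 and Apoe, again all higher, against 8.1% of all rows, 4.07% of them higher and 4.03% lower. The members' shares were therefore near or below the background. In all, 20 members (60.6%) lay above 0 and 13 below, where 53.4% of all rows lay above 0. Later counts of genes above 0 are read beside that share of all rows. Their median difference was 0.053, beside 0.013 over all rows. The 33 intervals reached from −0.42 to 0.52, with a median half-width of 0.20. In a bulk tissue, fewer cells of a type and less RNA per cell cannot be told apart.

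**Figure D1:**
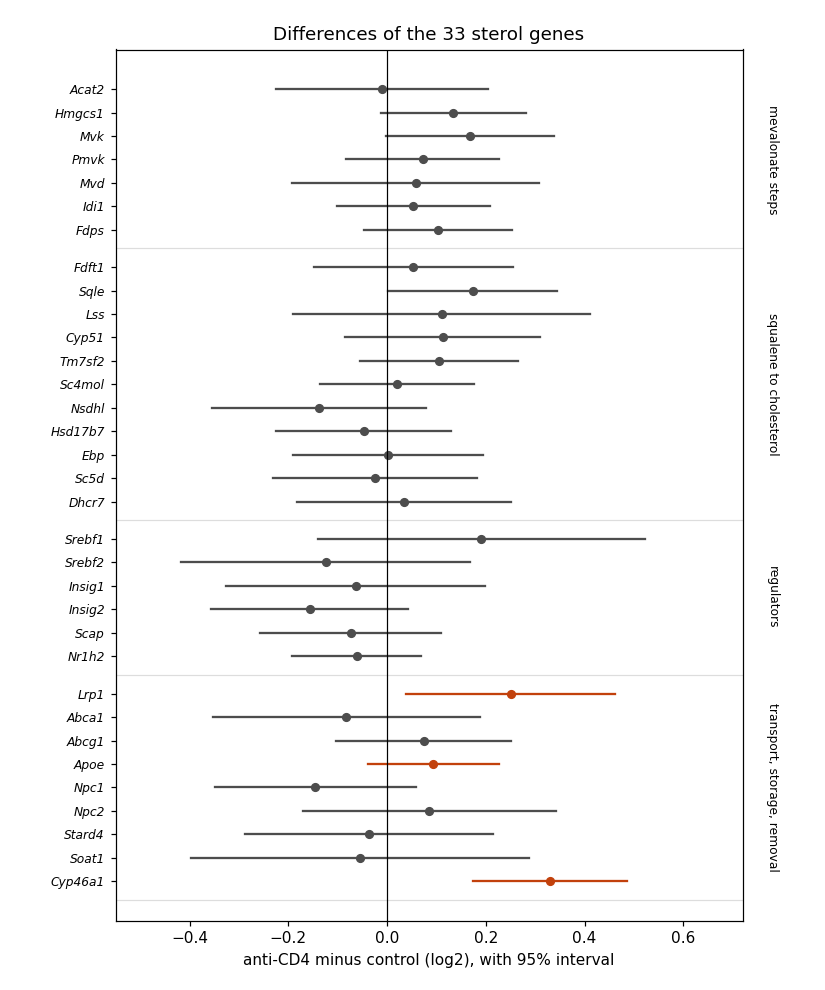
Difference in log2 signal (anti-CD4 minus control, 4 arrays a group) for each of the 33 members by role, points with the limma 95% interval, in orange where the groups did not overlap. The intervals of Cyp46a1, Lrp1 and Sqle exclude 0, and that of Apoe, also orange, covers it.

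Among the genes that turn acetyl units into farnesyl diphosphate, 6 of 7 lay above 0 in the anti-CD4 group with a median difference of 0.072, and 0 of 7 reached an unadjusted p under 0.05. Across scalings the count above 0 ran from 5 of 7 in the authors' deposited table to 7 of 7 under median centring. The median ran from 0.058 under quantile normalization to 0.11 under median centring, where the median over all rows was 0.046. Averaged over the 7 genes after centring each gene, the control arrays read −0.026, −0.11, −0.034 and 0.0053, and the anti-CD4 arrays 0.023, 0.10, 0.012 and 0.029. The highest control lay just under the lowest anti-CD4 array, so these averages did not overlap, though no single gene of the 7 was separated. The averages were read on this scale only. How often averages of other gene sets of this size separate was not tested. Hmgcs1, the synthase that builds HMG-CoA, read 5.22, 5.34, 5.22 and 5.37 in controls and 5.47, 5.46, 5.35 and 5.39 after anti-CD4. Its difference was 0.13 (SE 0.064, limma adjusted p = 0.421), with 1 of 4 anti-CD4 arrays inside the control range. Mvk, the kinase that takes mevalonate into the isoprenoid path, read 3.12, 3.03, 3.20 and 3.26 in controls and 3.23, 3.40, 3.26 and 3.39 after anti-CD4. Anti-CD4 array 1 lay below control 4, so the groups overlapped, and the difference was 0.17 (SE 0.074, limma adjusted p = 0.397), while its other tested probe gave 0.11. The remaining enzymes had differences of 0.072 for Pmvk and 0.058 for Mvd (−0.010 in the authors' deposited table), which act after Mvk, and 0.053 for Idi1, the isopentenyl diphosphate isomerase. Fdps, the farnesyl diphosphate synthase, differed by 0.10. Acat2, which condenses acetyl-CoA units at the start, differed by −0.011 and was 0.023 under median centring. None of these had groups that separated.

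Of the 11 enzymes from squalene to cholesterol, 8 lay above 0 with a median of 0.034, and the count ran from 6 under quantile normalization to 9 under median centring. Sqle (probe at chr15:59162688-59162747, plus strand, mm9), squalene epoxidase and a rate-setting enzyme of the path, was the only one at an unadjusted p under 0.05. It read 3.37, 3.43, 3.60 and 3.54 in controls and 3.75, 3.70, 3.58 and 3.59 after anti-CD4. Controls 1 and 2 were the low ones, anti-CD4 arrays 1 and 2 the high ones, and the groups overlapped because control 3 lay above anti-CD4 arrays 3 and 4. The difference was 0.17 (95% interval 0.0026 to 0.34, limma adjusted p = 0.384, exact permutation p = 0.0857), and it reached the unadjusted threshold in 10 of 19 settings. Fdft1, squalene synthase, differed by 0.053 and was −0.017 without control 2. Lss, which closes squalene epoxide into lanosterol, and Cyp51, which demethylates lanosterol, differed by 0.11 each. Lss ranged from −1.80 to −1.17 among the anti-CD4 arrays, wider than its controls. Cyp51 read −0.67 in anti-CD4 array 3, the highest of the 8, and −1.05 in anti-CD4 array 4, inside the control range. Tm7sf2, a sterol reductase, differed by 0.10 on its brightest probe and by −0.039 on the other.

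Sc4mol, a methyl sterol oxidase, differed by 0.020 and Ebp, the sterol isomerase, by 0.0019; both changed sign under quantile normalization. Sc5d, the desaturase, differed by −0.024 (0.010 under median centring) and Hsd17b7, a ketosteroid reductase, by −0.047. Averaged over its 3 tested probes, Hsd17b7 differed by −0.20, the dimmest probe by −0.57 and the remaining one by 0.011. Nsdhl, a sterol dehydrogenase, read 0.30, −0.048, 0.049 and 0.20 in controls and −0.13, 0.13, −0.078 and 0.032 after anti-CD4. Both groups spread across 0 here, and the difference was −0.14 on this probe and 0.078 on the other. Dhcr7, the last reductase of the path, differed by 0.034 and read 0.043 in control 2 against 0.36 to 0.39 in the other controls. Without control 2 it was −0.048.

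**Figure D2:**
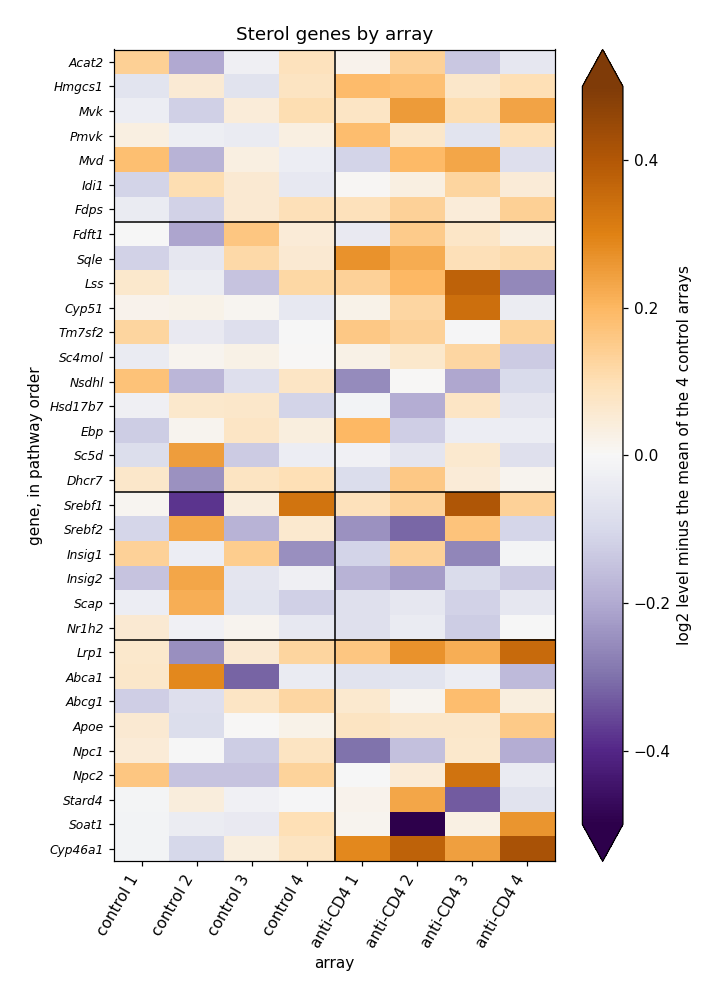
Level of each of the 33 members (rows, in pathway order, lines between role groups) on each of the 8 arrays (columns), as log2 level minus the mean of the 4 control arrays, orange above and purple below. The Cyp46a1 row is orange in all 4 anti-CD4 arrays, and the Soat1 row is darkest purple in anti-CD4 array 2.

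Among the regulators, 5 of 6 lay below 0 with a median of −0.069, and 0 of 6 reached an unadjusted p under 0.05; the split of 1 above 0 and 5 below held under every scaling tried, from −0.035 with median centring to −0.094 with quantile normalization. Srebf1, the factor tied mainly to fatty acid synthesis, was the one above 0. It read −1.25, −1.64, −1.21 and −0.93 in controls and −1.17, −1.12, −0.85 and −1.12 after anti-CD4, so the groups overlapped widely, and the difference was 0.19 (95% interval −0.14 to 0.52). Srebf2, the factor that mainly drives cholesterol synthesis genes, differed by −0.12, and its second probe by −0.079. Insig2, which retains SCAP in the endoplasmic reticulum, read 2.62, 3.0, 2.71 and 2.74 in controls and 2.59, 2.54, 2.68 and 2.64 after anti-CD4. Control 2 was the highest of the 8 and 2 of 4 anti-CD4 arrays lay below the lowest control; the difference was −0.16 (SE 0.088), and −0.12 on the second probe. Insig1, the other INSIG gene, differed by −0.063 and changed sign without anti-CD4 array 3 and with array weights. Scap, whose product escorts the SREBPs, differed by −0.074, with control 2 at 4.602 above every other array. Nr1h2, the liver X receptor beta that responds to oxysterols, differed by −0.061.

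Cyp46a1 showed the smallest p of the 33 members. It read 0.59, 0.50, 0.64 and 0.69 in the control arrays and 0.89, 0.98, 0.85 and 1.03 after anti-CD4, means of 0.61 ± 0.079 and 0.94 ± 0.079 (SD, n = 4). Every anti-CD4 array lay above every control array, by 0.33 on average (SE 0.068, 95% interval 0.17 to 0.49), which is 1.26-fold. The limma adjusted p was 0.211, at rank 104 of 20894, and the exact permutation p was 0.0286, the smallest that 70 assignments of arrays can give. Over 19 settings the difference ran from 0.30 to 0.37 with an unadjusted p under 0.05 in all 19, and the adjusted p from 0.112 to 0.510. The groups stayed apart in every scaling tried and without any one array, and with the replicate number as a block the unadjusted p was 0.00785 in the model.

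Lrp1 (probe at chr10:126975573-126975632, minus strand, mm9), the large receptor through which neurons and astrocytes take up ApoE particles, was also separated. Controls read 3.70, 3.39, 3.69 and 3.77 and anti-CD4 arrays 3.80, 3.91, 3.86 and 3.99. The difference was 0.25 (SE 0.093); control 2 was the lowest of the 8, and without it the difference was 0.17. The limma adjusted p was 0.326 and the exact permutation p 0.0286; 16 of 19 settings had an unadjusted p under 0.05. The groups overlapped under quantile normalization (0.22) and in the authors' deposited table (0.20). Of 3 probes on the array, 1 was well above background and used.

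Apoe, the lipoprotein that carries sterol from astrocytes, read 7.87, 7.73, 7.82 and 7.84 in controls and 7.89, 7.88, 7.88 and 7.97 after anti-CD4. The lowest anti-CD4 array lay only just above the highest control, so the separation is narrow. The difference was 0.093 (95% interval −0.039 to 0.23, limma adjusted p = 0.522, exact permutation p = 0.0286), and 0.018 under quantile normalization, 0.080 with normexp background correction and 0.048 in the authors' deposited table. Under each of these 3 alternatives the Apoe groups overlapped.

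The rest of the transport, storage and removal genes were mixed: with the 3 just named, 5 of 9 lay above 0, in every scaling tried, and the median difference was 0.074. Abca1 and Abcg1, which load cholesterol onto lipoproteins, differed by −0.083 and 0.074. Abca1 spread from 0.26 to 0.86 among controls and turned to 0.013 without control 2. Npc1 and Npc2, which move cholesterol out of late endosomes, differed by −0.15 and 0.085. Npc1 read −0.14, −0.19, −0.31 and −0.11 in controls and −0.48, −0.34, −0.12 and −0.38 after anti-CD4, with 3 of 4 anti-CD4 arrays below all controls. Stard4, a cytosolic sterol carrier, differed by −0.036 and became 0.062 without anti-CD4 array 3. Soat1, which esterifies cholesterol for storage, differed by −0.054 and became 0.10 without anti-CD4 array 2, which read −3.19 against −2.66 to −2.41 in the other anti-CD4 arrays.

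**Figure D3:**
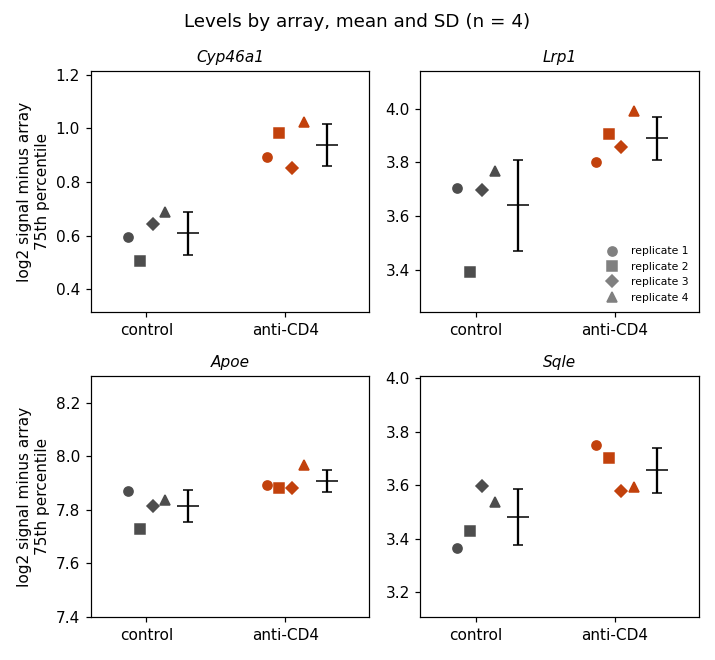
Log2 signal minus the 75th percentile of the array for Cyp46a1, Lrp1, Apoe and Sqle on each array, control in grey and anti-CD4 in orange, with the mean and SD of each group (n = 4) and axes of equal length. The points do not overlap for Cyp46a1, Lrp1 and Apoe, higher after anti-CD4, and overlap for Sqle.

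Of 20 other genes of sterol synthesis and regulation, 17 were tested, 12 above 0 with a median of 0.075 (−0.026 when each gene's probes were averaged). An unadjusted limma p under 0.05 was reached by 6 of the 17, 4 higher and 2 lower. Over all rows 12.8% reached it, 6.61% higher and 6.18% lower. The list was chosen with earlier results of these data known. Mbtps1, a protease that activates SREBPs, differed by 0.28 on its brightest probe, but −0.062 when its probes were averaged.

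Of 38 other sterol and lipoprotein transport genes, 36 were tested, 19 above 0. An unadjusted limma p under 0.05 was reached by 8 of the 36, 4 in each direction, against 12.8% of all rows. The median was 0.024 and turned to −0.0066 with quantile normalization. Osbpl9, an oxysterol-binding protein relative, read −1.08, −1.16, −1.21 and −1.13 in controls and −1.53, −1.56, −1.29 and −1.62 after anti-CD4, separated by −0.36 (limma adjusted p = 0.241). Osbp, which exchanges sterol between membranes, differed by −0.24 on its brightest probe and −0.12 over both probes. Osbpl1a differed by 0.22 on its brightest probe and 0.11 over its probes. The members of this family named here lay on both sides of 0.

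**Figure D4:**
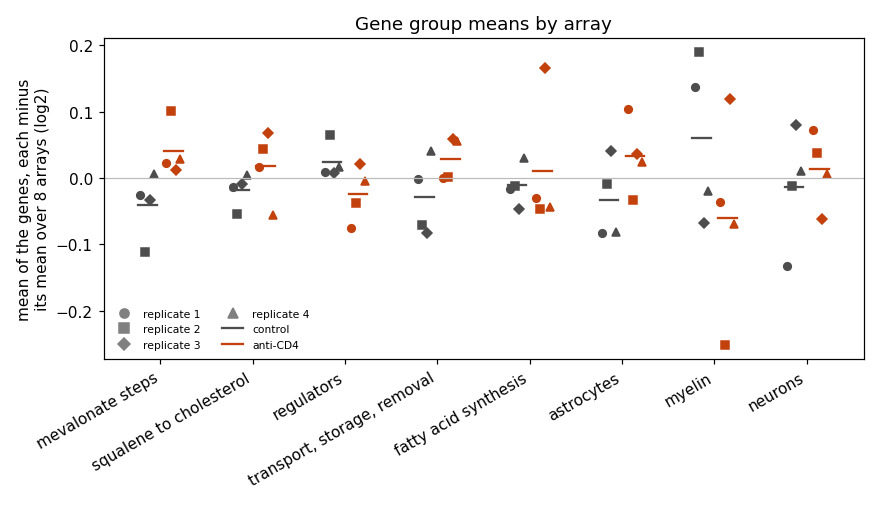
Mean of each gene group on each array, each gene minus its mean over 8 arrays (log2), control in grey and anti-CD4 in orange, with lines at the group means, for the 4 roles of the members and the fatty acid, astrocyte, myelin and neuron lists. The mevalonate averages of the anti-CD4 arrays, 0.012 to 0.10, lie just above the controls, −0.11 to 0.0053. The points overlap in every other group shown.

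Markers of the cells the dissection could hold also varied. Of 13 choroid plexus genes, all 13 lay above 0 with a median of 0.83, but the list averaged 1.81, −2.28, −3.13 and 1.75 in controls and −2.46, 0.96, 2.27 and 1.07 after anti-CD4, so arrays of the same group differed far more than the groups did. With this list as a covariate, added after seeing the data, Cyp46a1 differed by 0.32 and the median of the members was 0.031. Of 15 astrocyte genes, 10 lay above 0 (median 0.12), with Mlc1 at 0.22 and Gfap at −0.25. The astrocyte list averaged −0.082 to 0.041 over the control arrays and −0.034 to 0.10 over the anti-CD4 arrays. Of 14 myelin genes tested, 4 lay above 0 (median −0.15), with Aspa at −0.29. The myelin list averaged −0.068 to 0.19 in controls and −0.25 to 0.12 after anti-CD4. Genes of neurons, the cells in which Cyp46a1 is mainly made, lay above 0 in 5 of 13 (median −0.019, 0.015 under median centring). The neuronal list averaged −0.13 to 0.079 in controls and −0.061 to 0.073 after anti-CD4, and Syt1 differed by 0.18 while Snap25 differed by −0.0076. Of 9 dentate granule genes tested 2 lay above 0 (median −0.22), of 14 microglial genes 10 (median 0.069), and of 13 endothelial genes 7 (median 0.041). Of 6 blood genes tested, 5 were higher at an unadjusted limma p under 0.05, where 6.61% of all rows were higher. Among these, Hba-a1 differed by 0.49 and Alas2 by 0.63. The blood list averaged −0.36 to −0.059 in controls and 0.097 to 0.29 after anti-CD4, with no overlap. The part of any of these in the sterol values was not tested, except where the covariate is given.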

How the data were processed

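Intensity per spot was measured by Agilent Feature Extraction 10.7.3.1, per the file headers, as the processed signal of one-colour arrays (mm9 probe positions), and the submitters' processing notes name limma without a version. The authors' deposited value table holds log2 values, whose scale was checked against each array's own median spot signal (medians 7.83; lowest rank correlation 0.99999); it served as an alternative. Log2 processed signal was set relative to each array's 75th percentile, and control spots were left out. Flagged spots were left out unless all spots of a probe on that array were flagged, in which case they were kept. Probes well above background on at least 4 arrays were kept, the brightest for each gene name, so noncoding regions that share a name gave 1 row. limma 3.58.1 in R 4.3.3 compared the groups with Benjamini-Hochberg adjustment over all 20894 rows. On simulated data (20894 rows, 10 sets), it recovered 84% of rows shifted by 1 and 46.7% of those shifted by 0.5. Both shifts were larger than any member's difference (highest 0.33). The simulated rows varied independently, without differences shared by many genes of an array, such as those of the choroid plexus list. Members, lists and alternatives were chosen with earlier results of these data known. All members were named, and from other lists up to 3 genes by smallest p, with the brightest marker of each cell type available for naming; some genes this rule names are not reported here.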

Additional observations from a re-analysis of the deposited data

Results flagged for a closer look

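Samples that lay far from the other 3 of their group were looked for in 202 groups of values, and 10 (4.95%) stood out, about the 1 in 20 that chance flags. Among the members, Cyp51 in control 4 read −1.06 (others −1.004 to −0.99), Dhcr7 in control 2 read 0.043 (others 0.36 to 0.39), Srebf1 in anti-CD4 3 read −0.85 (others −1.17 to −1.12), and Apoe in anti-CD4 4 read 7.97 (others 7.88 to 7.89). The regulators' average in control 2 was 0.064 (others 0.0069 to 0.016). In other lists, Mbtps1 in anti-CD4 1 read 4.09 (others 3.87 to 3.88), Cyp11a1 in anti-CD4 4 read −2.71 (others −3.11 to −3.07), Scd1 in anti-CD4 2 read 2.33 (others 2.21), and Lck in anti-CD4 3 read −0.76 (others −0.29 to −0.21). The fatty acid list averaged 0.17 in anti-CD4 3 (others −0.047 to −0.031).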

How the results depend on the processing

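No member passed an adjusted p of 0.05 in any of 19 settings. Over all rows, the count was 2 with the authors' table, 2 with trend and robust options, and 0 to 17 when 1 array was left out (17 without anti-CD4 array 3). Members at an unadjusted p under 0.05 numbered 5 with trend and robust options (15.2%, against 13.5% of all rows there) and 1 to 4 without 1 array (1 without anti-CD4 array 2, 3.03% against 9.25%). Members whose groups did not overlap numbered 5 with median centring (15.2%, against 8.36% of all rows), 1 with quantile normalization, Cyp46a1 (3.03% against 9.29%), and 3 to 7 without 1 array: 6 without control 4 (18.2% against 12.8%), 7 without anti-CD4 array 3 (21.2% against 16.8%) and 5 without anti-CD4 array 4 (15.2% against 10.71%). The members' median was 0.087 with median centring, 0.013 with array weights, and 0.024 to 0.069 without 1 array (0.024 without control 2). Over all rows the median was 0.046 with median centring, 0.011 with array weights, and 0.0010 to 0.021 without 1 array. 21 of 33 members kept their sign in all 19 settings. Median centring made 1961 rows higher and 718 lower at an unadjusted p under 0.05 (73.2% higher, against 51.7%). Replicate numbers are slide columns. Deviations from the group mean correlated at −0.44, −0.28, −0.31 and 0.28 between arrays of the same number, and 2 of 8 arrays were closest to their own number. The choroid plexus list also differed widely between arrays of a group, so these correlations cannot settle whether the samples were paired. The replicate block left 0 rows past the adjusted threshold, 917 higher and 952 lower at an unadjusted limma p under 0.05. Soat1 was read from a dim probe (mean −2.67 in controls and −2.73 after anti-CD4), though one well above background on all 8 arrays. Whether dimness shaped its values was not tested. The cause of these shifts was not tested.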

Other observations

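Of 19 fatty acid synthesis genes, 10 lay above 0 (median 0.020, −0.012 with quantile normalization). An unadjusted limma p under 0.05 was reached by 5 of the 19, 3 of them higher, against 12.8% of all rows. Acss2, which makes acetyl-CoA from acetate, differed by −0.19 (limma adjusted p = 0.292) with groups that did not overlap, and Scd1, the desaturase, by −0.16. Acly, which supplies cytosolic acetyl-CoA, differed by 0.21 on its brightest probe and 0.024 over its probes. Of 15 isoprenoid branch genes, 8 lay above 0 (median 0.0045); Icmt, which methylates prenylated proteins, differed by 0.26 (limma adjusted p = 0.354). Of 7 oxysterol and bile acid enzymes tested, 3 lay above 0 and 0 reached an unadjusted p under 0.05. Ch25h, a cholesterol hydroxylase, was well above background on 1 control and 3 anti-CD4 arrays. Its groups overlapped, and the difference was 0.33 (SE 0.43), and 0.035 in the authors' deposited table.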
